A study of Mus musculus with 14 samples.

Results

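Microglia were compared between retinas whose fellow eye had received a microbead injection (contralateral) and retinas of untreated mice (naive). The 2 groups were taken from the sample titles and hold 3 contralateral and 4 naive libraries, 7 of the 14 libraries in the series. The other libraries come from microbead-injected retinas (3) and sham-injected retinas (4), which serve here as further points of reference. Every mouse was wild type, of the C57BL/6 strain and aged 12 weeks, and each library holds the sorted microglia of 1 retina. Sorting kept cells that were positive for CD11b and Fcrls and negative for Ly6c, 100 to 600 cells per retina. The labels give neither sex nor time after injection, and do not say which contralateral and microbead-injected retinas came from the same mouse. Where nothing names separate mice, p-values measure the spread between these libraries.

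Microglia, the macrophages that live in retinal tissue, take on several states. Under the homeostatic program they express receptors that survey neurons, such as Cx3cr1 and P2ry12, and in degenerating tissue they can move to a state known as MGnD, in which Apoe and Trem2 drive lipid-handling and phagocytic genes. Microbeads block the outflow of fluid from the injected eye and raise its pressure, a model of glaucoma. The fellow eye is not injected, but it belongs to the same animal, and optic nerve damage on one side has been described to affect glia on the other. The comparison with naive retinas addresses whether microglia of the fellow eye differ from those of an animal that was never injected.

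No gene passed the test between contralateral and naive microglia. Among 14279 genes, 0 (0%) reached an adjusted p under 0.05 in edgeR's quasi-likelihood test with Benjamini-Hochberg adjustment, and the smallest adjusted p was 0.949. At an unadjusted p under 0.05 there were 740 genes (5.18%), of which 414 (2.9%) were higher and 326 (2.28%) lower in contralateral libraries. DESeq2's Wald test called 64 genes on the same data, 38 of them with no read at all in one of the 2 groups, and limma voom called 0. Without the filter on low counts edgeR called 21 genes, and with contralateral replicate 3 left out it called 11. Of the 21, 11 were higher and 10 lower, and the smallest adjusted p belonged to AY036118 (2.44e-25, edgeR). They included 5 mitochondrial genes, Rac1, Hspa1a, Atf3, C1qc, C4b, H2-Aa, H2-Ab1 and H2-Eb1. These calls depended on the filter more than on the values. For mt-Co2 the adjusted p (edgeR) went from 0.949 with the filter to 5.74e-08 without it, while the log2 fold change was -2.368 and -2.405. Adjusted p-values without the filter are therefore no second line of evidence. Across all genes tested, log2 fold changes had a median at -0.06 and standard errors one at 1.24 on the log2 scale. Differences within that error were not detectable in most genes, and differences of several standard errors were not called either. An example is mt-Co2, at -2.37 ± 0.48 (SE). Contralateral against sham libraries, 0 genes (0%) were called and 694 had an unadjusted p under 0.05, and with contralateral replicate 3 left out 21 were called. For each gene named below the adjusted p was 0.949 or higher, and its values are given as levels in CPM, counts scaled to library size with TMM factors, with the fitted log2 fold change.

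The 3 contralateral libraries were unlike each other. They held 6027731, 7601452 and 13995779 reads over 13472, 10306 and 16531 genes, against 7055915 to 12193807 reads over 14030 to 16271 genes in naive libraries. Over 8718 genes averaging at least 10 CPM, the median SD of log2 CPM within the group was 1.11 in contralateral libraries and 0.61 in naive libraries. Contralateral replicate 3 differed from single naive libraries by a median of 0.43 to 0.73 log2 units per gene, against 0.45 to 0.72 between naive libraries. Replicate 2, which had no reads for 2049 genes found in the other 6 libraries, differed from them by 1.44 to 1.54. Short transcripts were favoured over long ones in replicates 1 and 2, by 0.46 and 0.87 log2 units, but not in replicate 3, at -0.28, against -0.28 to 0.16 in naive libraries. The part of these library differences in the results below was not tested, beyond the values given with a library left out.

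**Figure D1:**
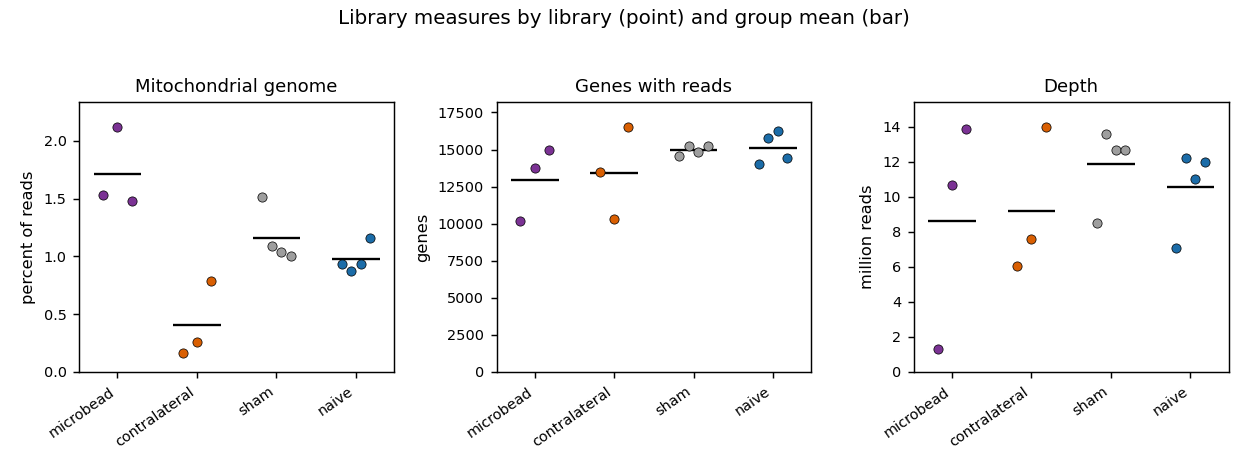
Share of reads on the mitochondrial genome (percent), genes with at least 1 read, and depth in reads for each library (points) with the group mean (bars). The 3 contralateral libraries lie between 0.164% and 0.786% of reads on the mitochondrial genome, below each of the other 11 libraries.

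Transcripts of the mitochondrial genome stood lower in the contralateral libraries. This small circular chromosome encodes 13 subunits of the respiratory chain and ATP synthase and the 2 mitochondrial ribosomal RNAs. Its transcripts took 0.164%, 0.261% and 0.786% of reads in the contralateral libraries, against 0.932%, 0.871%, 0.933% and 1.16% in the naive libraries. Sham libraries held 1.00 to 1.51%, and microbead libraries, from the injected eyes, held 1.48 to 2.12%. The 3 contralateral libraries therefore had the lowest shares of all 14 and the groups did not overlap, although replicate 3 lay close to the lowest naive library. Each of the 13 protein-coding members had a log2 fold change below 0, with a median at -1.37, while 47.4% of all genes tested had one above 0 and their median was -0.06. None was called by edgeR with the low-count filter, while DESeq2 called mt-Co2 and edgeR without the filter called mt-Co1, mt-Co2, mt-Nd1 and mt-Atp6. In the fit with the filter 8 had an unadjusted p under 0.05 in the lower direction, and 4 lay lower in every contralateral than in every naive library (3.73% of all genes did).

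The smallest p of all genes belonged to mt-Co2, the mitochondrially encoded subunit II of cytochrome c oxidase (chrM:7013-7696, GRCm38). Its level was 30.8, 94.8 and 167 CPM in contralateral libraries, against 423, 456, 473 and 665 CPM in naive libraries. All contralateral values lay far below the naive ones, and the fitted log2 fold change was -2.37 ± 0.48 (SE; 95% interval -3.43 to -1.31). Against the sham libraries, at 812, 504, 517 and 472 CPM, the log2 fold change was -2.56. A subunit of complex I, mt-Nd1, stood at 75.7, 94.6 and 492 CPM in contralateral libraries and at 498, 675, 616 and 731 CPM in naive libraries (log2 fold change -1.51 ± 0.49, SE). Here replicate 3 was just under the lowest naive library while the other 2 were several times lower. The ATP synthase subunit mt-Atp6 had 90.5, 124 and 470 CPM in contralateral libraries against 517, 425, 607 and 811 CPM in naive libraries, and its groups overlapped through replicate 3. The large mitochondrial ribosomal RNA, mt-Rnr2, had 1158, 2041 and 3403 CPM in contralateral libraries against 5131, 3619, 3497 and 5956 CPM in naive libraries (log2 fold change -1.05 ± 0.33, SE).

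**Figure D2:**
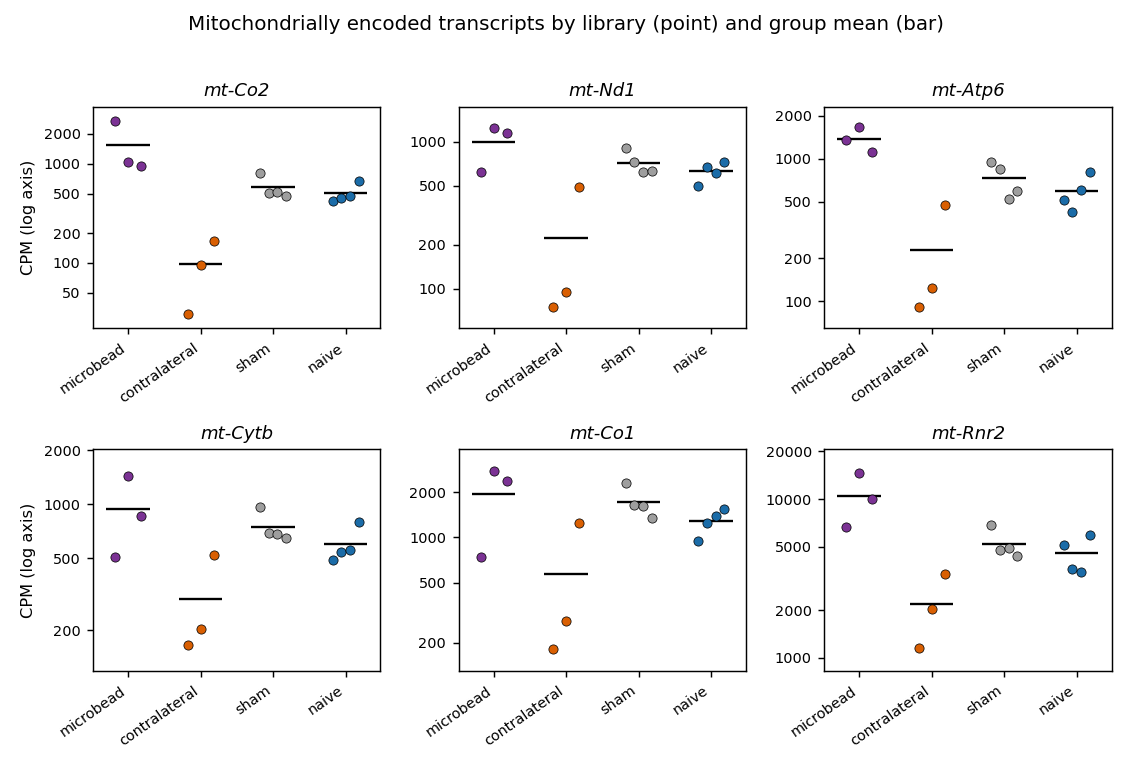
Level in CPM (log axis) of 6 mitochondrially encoded transcripts in each library (points) with the group mean (bars), for microbead, contralateral, sham and naive retinas. The mt-Co2 levels run from 30.8 to 167 CPM in contralateral libraries and from 423 to 665 CPM in naive libraries, while in mt-Atp6, mt-Cytb and mt-Co1 the third contralateral library lies among the naive ones.

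How strongly these transcripts differed depended on the contralateral library. Relative to the naive mean, the mean log2 CPM of the 13 genes was -3.02, -2.12 and -0.49 in the 3 contralateral libraries, against 0.25, 0.00, 0.24 and -0.49 in the naive libraries. The same mean over all genes tested was -0.26, -1.30 and 0.24 in the contralateral libraries. With contralateral replicate 3 left out, the median log2 fold change of the 13 genes was -2.46, and 5 of the 11 genes then called were among them, namely mt-Co1, mt-Co2, mt-Nd1, mt-Nd5 and mt-Atp6. With replicate 1 left out the median was -0.998 and with replicate 2 left out -1.06, and 0 genes in either case were called. Against sham the median was -1.66. Mitochondrial sequences have copies in the nuclear genome that could share reads with them. With the trend of level on length removed from each library the median was -1.20.

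Nuclear genes for the same respiratory complexes gave a median near that of all genes. Of 48 measured genes on the list of nuclear-encoded subunits, 28 had a log2 fold change above 0 (47.4% of all genes tested did) and the median was 0.12. At an unadjusted p under 0.05, 1 was higher and 0 lower, against 2.9% and 2.28% of all genes. In 2 of the 48 all contralateral libraries lay above all naive ones and in 3 below, against 2.49% and 3.73% of all genes. Cox4i1, the nuclear subunit IV of cytochrome c oxidase, had 524, 567 and 175 CPM in contralateral libraries against 226, 185, 147 and 229 CPM in naive libraries. Cox7c, another subunit of that complex, stood in the other direction with 9.51, 15.9 and 25.5 CPM in contralateral libraries against 36.7, 35.2, 35.03 and 46.9 CPM in naive libraries. The difference between mitochondrial and nuclear subunits was not itself tested.

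Injected and fellow eyes were compared directly, and there 4 of 14279 genes (0.028%) passed the test, 2 of them mitochondrial. mt-Co2 was higher in microbead libraries, at 2683, 1035 and 939 CPM, than in contralateral libraries, at 30.8, 94.8 and 167 CPM (log2 fold change 3.99 ± 0.53, SE; adjusted p = 0.00756, edgeR). mt-Rnr2 rose to 6637, 14720 and 10030 CPM in microbead libraries, against 1158, 2041 and 3403 CPM in contralateral libraries (log2 fold change 2.25 ± 0.36, SE; adjusted p = 0.0358, edgeR). For mt-Co2 every sham and naive library lay between these groups, while for mt-Rnr2 1 sham library, at 6906 CPM, exceeded the lowest microbead library. Apoe, the lipid carrier that marks the MGnD state, rose to 19620, 53580 and 24310 CPM in microbead libraries, against 3947, 1494 and 7555 CPM in contralateral libraries (log2 fold change 2.91 ± 0.49, SE; adjusted p = 0.04, edgeR). Stab1, a scavenger receptor, fell to 127, 197 and 217 CPM in microbead libraries, against 681, 1009 and 446 CPM in contralateral libraries (log2 fold change -1.98 ± 0.32, SE; adjusted p = 0.0358, edgeR). With contralateral replicate 2 left out 0 genes were called, and without contralateral replicate 3 there were 56. The count was 162 without microbead replicate 3, 31 without microbead replicate 2, 7 without microbead replicate 1 and 13 without contralateral replicate 1. With the replicate number as a block, with the length trend removed, or with both libraries of fewer than 12000 genes left out (microbead replicate 1 and contralateral replicate 2) it was 0, 0 and 9.

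For Apoe the contralateral and naive levels overlapped, since naive libraries held 7578, 5380, 4969 and 3472 CPM. The log2 fold change of contralateral over naive was -0.30, with a 95% interval of -1.25 to 0.64. For Stab1, in contrast, all contralateral libraries lay above the naive ones, at 370, 319, 363 and 425 CPM (log2 fold change 0.95 ± 0.28, SE). Sham libraries held 325 to 409 CPM of Stab1, close to the naive range.

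**Figure D3:**
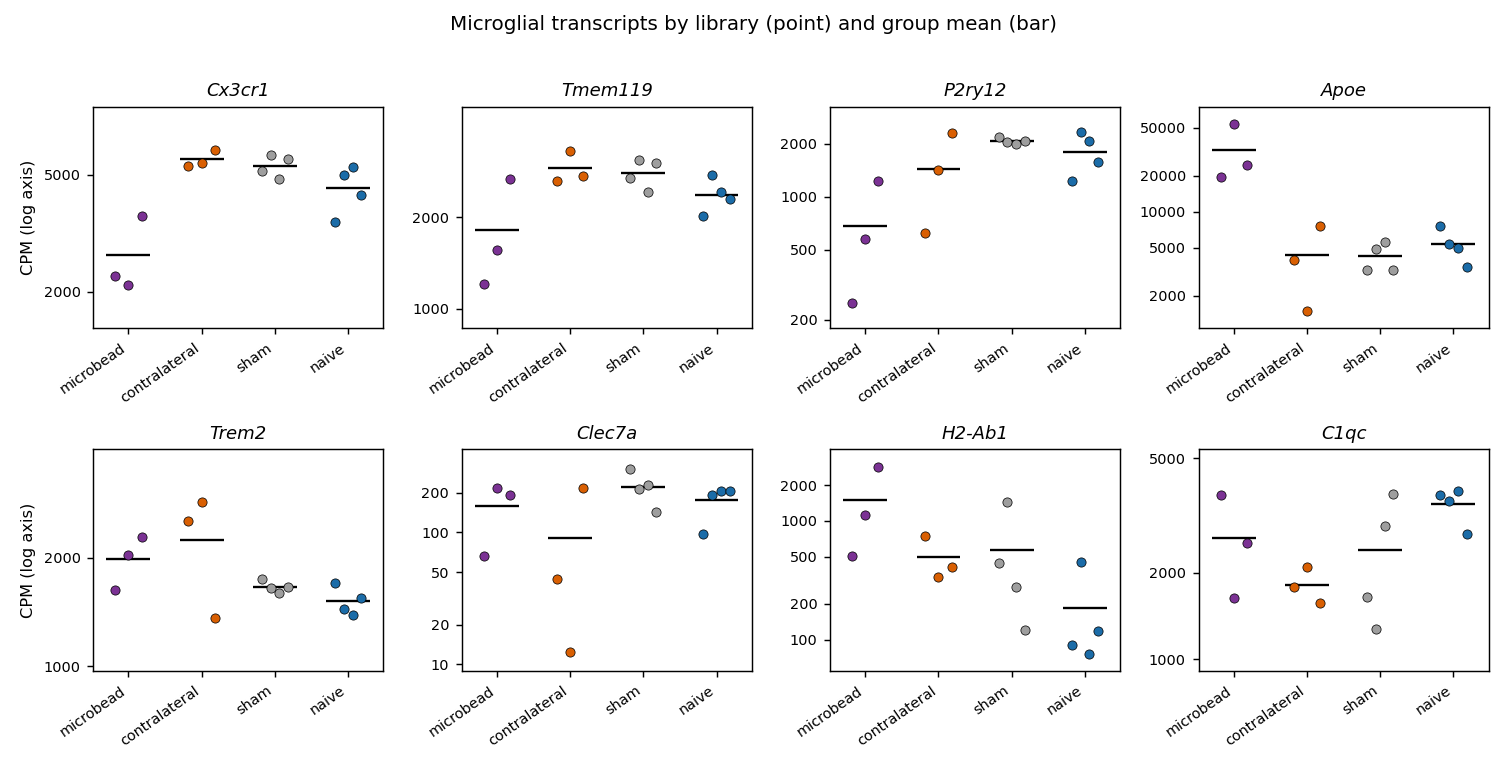
Level in CPM (log axis) of 8 microglial transcripts in each library (points) with the group mean (bars), for microbead, contralateral, sham and naive retinas. Contralateral Cx3cr1 levels, 5363 to 6072 CPM, lie just above the naive range of 3456 to 5300 CPM. Contralateral Apoe levels, 1494 to 7555 CPM, overlap the naive range of 3472 to 7578 CPM.

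The homeostatic program was near the naive level by its mean and somewhat above it by its median. The mean log2 CPM of the list differed from the naive mean by 0.008, against -0.44 over all genes tested. It stood at -0.24, 0.12 and 0.14 in contralateral libraries, against -0.19, 0.12, 0.12 and -0.05 in naive libraries. All 32 listed genes were measured, 21 had a log2 fold change above 0 (47.4% of all genes tested did) and the median was 0.16. In 3 of them all contralateral libraries lay above all naive ones and in 1 below, against 2.49% and 3.73% of all genes. At an unadjusted p under 0.05 there were 3 higher and 0 lower, against 2.9% and 2.28% of all genes. The summed level was 87970, 100200 and 77370 CPM in contralateral libraries against 64680, 78220, 75570 and 68380 CPM in naive libraries. A large part of these sums was Cst3, which averaged 33330 CPM in contralateral and 24340 CPM in naive libraries. Cx3cr1, the receptor for neuronal fractalkine, had 5363, 5462 and 6072 CPM in contralateral libraries against 3456, 4997, 5300 and 4268 CPM in naive libraries. The groups were adjacent without overlap, and the log2 fold change was 0.32 with a 95% interval of -0.16 to 0.80. Tmem119, a membrane protein used as a microglial marker, had 2640, 3302 and 2741 CPM in contralateral libraries against 2014, 2760, 2417 and 2294 CPM in naive libraries. P2ry12, the ADP receptor that guides microglial processes, had 628, 1424 and 2295 CPM in contralateral libraries against 1229, 2329, 2093 and 1577 CPM in naive libraries. It thus ranged more widely within contralateral than within naive libraries. Slco2b1, an organic anion transporter, had the smallest p of the list, with 1710, 2307 and 1514 CPM in contralateral libraries against 1118, 1379, 1426 and 1152 CPM in naive libraries.

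Transcription factors that set microglial identity gave mixed values. Of 24 measured, 8 had a log2 fold change above 0 (47.4% of all genes tested did) and the median was -0.11. At an unadjusted p under 0.05, 2 were higher and 2 lower, against 2.9% and 2.28% of all genes. Maf, a macrophage factor, stood at 46.0, 15.6 and 103 CPM in contralateral libraries against 267, 147, 128 and 154 CPM in naive libraries (log2 fold change -1.66 ± 0.55, SE). Spi1, which encodes PU.1, the factor required for the myeloid lineage, had 154, 147 and 109 CPM in contralateral libraries against 293, 263, 271 and 235 CPM in naive libraries (log2 fold change -0.96 ± 0.39, SE). Neither gene's groups overlapped, and against sham the log2 fold changes were -1.002 for Maf and -0.27 for Spi1. Sall1, a factor that within the myeloid cells marks microglia, overlapped fully, with 792, 261 and 369 CPM in contralateral libraries against 557, 378, 359 and 635 CPM in naive libraries.

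The MGnD list held 33 measured genes, of which 7 were higher and 1 lower at an unadjusted p under 0.05 (2.9% and 2.28% of all genes were). Its median log2 fold change was 0.27, with 19 genes above 0, while the mean log2 CPM over the list differed from the naive mean by -0.19, of the other sign. Over all genes tested that mean differed by -0.44 and the median log2 fold change was -0.06, both below the values of the list. Ctsz, a lysosomal cathepsin, had 2882, 3962 and 2318 CPM in contralateral libraries against 1648, 2042, 2016 and 1754 CPM in naive libraries, with no overlap (log2 fold change 0.71 ± 0.22, SE). Trem2, the lipid receptor needed for the MGnD state, had 2524, 2858 and 1357 CPM in contralateral libraries against 1701, 1439, 1384 and 1547 CPM in naive libraries. Replicates 1 and 2 were above and replicate 3 below every naive library. Clec7a, a pattern receptor that marks the MGnD state, had 43.9, 12.4 and 215 CPM in contralateral libraries against 97.5, 191, 204 and 205 CPM in naive libraries. Spp1, Gpnmb and Lgals3, other MGnD markers, had at most 4.41 CPM in any contralateral library and at most 9.59 CPM in any naive library.

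Immediate early and heat shock genes, which cells transcribe within minutes of a stimulus or of stress, leaned towards higher levels. Of 34 measured members 33 had a log2 fold change above 0 (47.4% of all genes tested did), and the median was 0.69. At an unadjusted p under 0.05, 11 were higher and 0 lower, against 2.9% and 2.28% of all genes. The median was 0.39 with limma voom, 0.36 on log2(FPKM + 1) and 1.13 with the length trend removed, a fit in which that of all genes was 0.19. In 4 members all contralateral libraries lay above all naive ones (2.49% of all genes did). The list was also high in sham libraries: the median log2 fold change of contralateral over sham was 0.12. By library, the mean log2 CPM of the list relative to the naive mean was 1.45, 0.49 and 0.35 in contralateral libraries, against -0.47, 0.25, 0.26 and -0.04 in naive libraries. Over all genes tested the contralateral values were -0.26, -1.30 and 0.24, the last of them close to that of the list in replicate 3. Sham libraries stood at 1.08, 1.1, 0.40 and 0.46, within the contralateral range.

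Hspa1a encodes the inducible chaperone Hsp70 (chr17:34969190-34972156, minus strand, GRCm38), which heat shock factor 1 activates through heat shock elements. The 150 bases before its start, from RefSeq (GRCm38.p6, chr17:34972157-34972306, minus strand), are shown because, of the 4 members whose groups did not overlap, this gene had the largest log2 fold change. Capitals mark the one match to the element core GAANNTTC:
Hspa1a: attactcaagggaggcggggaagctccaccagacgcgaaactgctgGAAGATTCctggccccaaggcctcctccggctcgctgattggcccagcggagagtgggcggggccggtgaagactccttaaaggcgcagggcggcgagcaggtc
The match begins 104 bases before the start. On either strand, in windows from 250 bases before to 50 after a start, the core occurred in 7 of the 27 list members with a RefSeq window, namely Dnaja1, Fosl2, Hspa1a, Hspa1b, Hspb1, Hsph1 and Jun, and in 9.04% of all 27025 genes. The AP-1 motif TGANTCA occurred in 1 of the 27 and in 8.97% of all genes, and the cyclic AMP response element TGACGTCA in 2 of the 27 and in 2.03%.

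Hspa1a had 798, 523 and 315 CPM in contralateral libraries against 1.90, 149, 111 and 50.6 CPM in naive libraries. All contralateral libraries were above all naive ones, with a log2 fold change of 2.80 ± 0.82 (SE). The sham libraries, at 851, 513, 193 and 146 CPM, spanned the contralateral levels. Hspa1b, a nearly identical neighbour with which reads can be shared, had 32.9, 15.3 and 38.3 CPM in contralateral libraries against 12.9, 27.1, 9.71 and 33.0 CPM in naive libraries. Dnajb1, the Hsp40 partner of Hsp70, had 465, 340 and 177 CPM in contralateral libraries against 135, 168, 165 and 101 CPM in naive libraries. Hspa8, the constitutive Hsc70 chaperone, had 2740, 3175 and 1352 CPM in contralateral libraries against 1086, 1514, 1338 and 1207 CPM in naive libraries. In Hspa8 the first 2 contralateral libraries stood well above the naive range and replicate 3 lay inside it. The stress-induced factor Atf3 repeated that order, with 1167, 693 and 178 CPM in contralateral libraries against 98.4, 247, 258 and 246 CPM in naive libraries (log2 fold change 1.68 ± 0.48, SE). The AP-1 subunits Jun and Fos did so too: Jun had 6419, 7563 and 3248 CPM in contralateral libraries against 2314, 4549, 3747 and 3116 CPM in naive libraries. Fos had 2874, 2741 and 1371 CPM in contralateral libraries against 1014, 1910, 1655 and 1785 CPM in naive libraries.

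**Figure D4:**
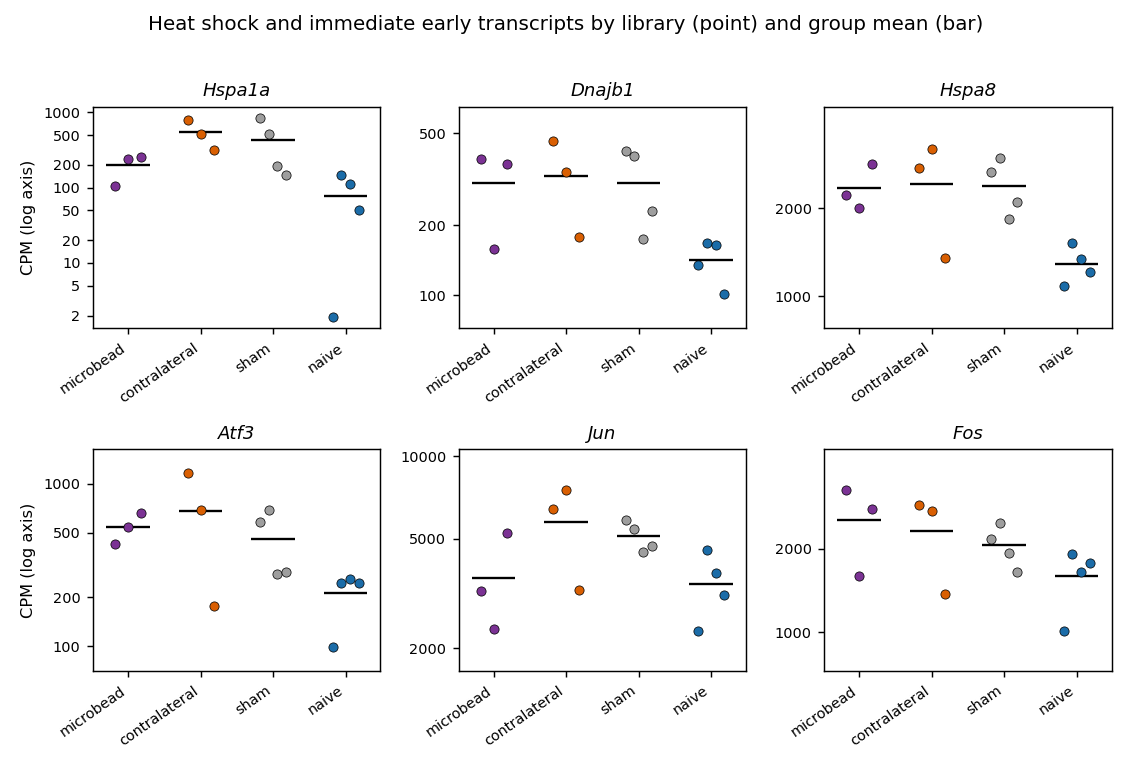
Level in CPM (log axis) of 6 heat shock and immediate early transcripts in each library (points) with the group mean (bars), for microbead, contralateral, sham and naive retinas. Hspa1a runs from 315 to 798 CPM in contralateral libraries and from 1.90 to 149 CPM in naive libraries, with sham libraries from 146 to 851 CPM.

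Antigen presentation genes mostly had log2 fold changes above 0 against naive libraries. Of the 15 genes for MHC class II presentation, 12 had a log2 fold change above 0 (47.4% of all genes tested did) and the median was 0.53. At an unadjusted p under 0.05, 2 were higher (2.9% of all genes were). In 5 of the 15 all contralateral libraries were above all naive ones (2.49% of all genes were), and against sham the class II median was -0.20. Cd74, the invariant chain, had 445, 267 and 294 CPM in contralateral libraries against 30.4, 262, 51.7 and 138 CPM in naive libraries. H2-Ab1, the beta chain of I-A, had 745, 337 and 408 CPM in contralateral libraries against 90.2, 452, 76.4 and 118 CPM in naive libraries. Naive replicate 2 lay inside the contralateral range for H2-Ab1 and just under it for Cd74. H2-DMa, which loads peptides, had 326, 580 and 298 CPM in contralateral libraries against 239, 246, 253 and 215 CPM in naive libraries. For MHC class I and peptide loading the median of 20 genes was 0.41 against naive and 0.19 against sham libraries. The mean log2 CPM of this list differed from the naive mean by 0.01, against -0.44 over all genes tested. It stood at 0.42, -0.60 and 0.21 in contralateral libraries, so replicate 2 lay below the naive range of -0.10 to 0.07. At an unadjusted p under 0.05, 3 were higher and 0 lower, against 2.9% and 2.28% of all genes. Among the 3 was the peptide transporter subunit Tap2, at 315, 262 and 115 CPM in contralateral libraries against 64.4, 90.4, 91.6 and 142 CPM in naive libraries.

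Among inflammatory genes, 6 of 32 were higher and 1 lower at an unadjusted p under 0.05 (2.9% and 2.28% of all genes were), and the median log2 fold change was 0.28. The mean log2 CPM of the list differed from the naive mean by -0.001, against -0.44 over all genes tested. In 2 members, Nlrp3 and Tnf, all contralateral libraries lay above all naive ones (2.49% of all genes did). In 3 members, Casp1, Ccl9 and Il6, all lay below (3.73% of all genes did). Nlrp3, the inflammasome sensor, had the smallest p of any gene with higher levels that the naming rule took, at 191, 312 and 91.9 CPM in contralateral libraries against 38.5, 57.3, 77.1 and 63.1 CPM in naive libraries (log2 fold change 1.75 ± 0.43, SE). Sham libraries held 76.6 to 88.3 CPM of Nlrp3, below all 3 contralateral libraries as well, and the log2 fold change of contralateral over sham was 1.24. Ccl4, a chemokine, had 515, 466 and 179 CPM in contralateral libraries against 53.8, 120, 264 and 157 CPM in naive libraries. Ccl6, another chemokine, ran the other way with 49.2, 49.98 and 159 CPM in contralateral libraries against 200, 198, 236 and 158 CPM in naive libraries. Interferon response genes showed 0 higher and 0 lower of 39 at that threshold, with a median at 0.29 and a mean log2 CPM that differed from the naive mean by -0.36, of the other sign, against -0.44 over all genes tested. The direction turned with the setting: the median was -0.23 against sham, and against naive it was -0.26 without contralateral replicate 3 and -0.15 on log2(FPKM + 1).

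Complement genes were split, also within the C1q molecule. C1qc, a chain of the C1q recognition molecule, had 1786, 2094 and 1563 CPM in contralateral libraries against 3718, 3537, 3835 and 2723 CPM in naive libraries, without overlap (log2 fold change -0.93 ± 0.33, SE). The other chains, added after their values were seen, stood in the opposite direction. C1qa had 4278, 4604 and 3511 CPM in contralateral libraries against 3060, 3045, 3178 and 2962 CPM in naive libraries, also without overlap (log2 fold change 0.43 ± 0.20, SE). C1qb had 8609, 6647 and 4518 CPM in contralateral libraries against 4779, 4712, 4525 and 4441 CPM in naive libraries, with replicate 3 inside the naive range. C4b, a later component whose reads may be shared with its copy C4a, had 3.80, 51.4 and 42.1 CPM in contralateral libraries against 11.4, 4.72, 7.16 and 1.64 CPM in naive libraries. Over the 17 measured identifiers of the complement list the median log2 fold change was 0.14. They hold Itgam a second time, under an identifier that averaged 3.56 CPM in contralateral and 4.46 CPM in naive libraries. At an unadjusted p under 0.05, 3 were higher and 1 lower, against 2.9% and 2.28% of all genes.

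**Figure D5:**
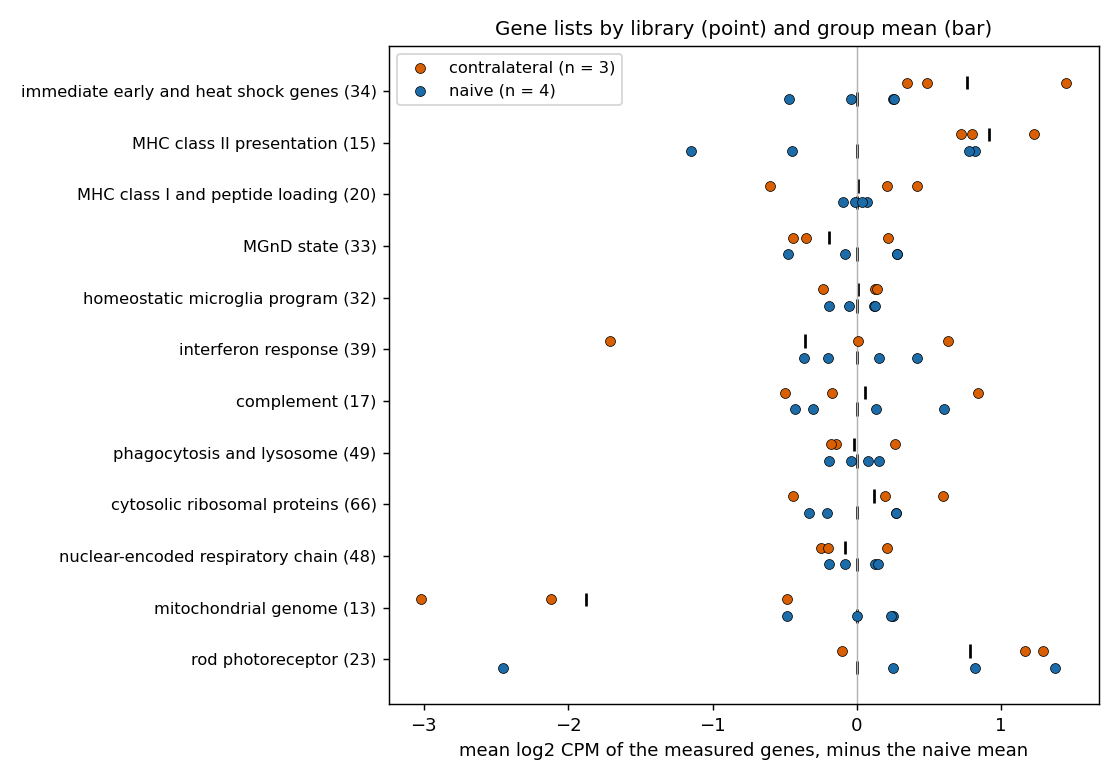
Mean log2 CPM of the measured genes of 12 lists (number of genes in brackets), minus the mean of the naive libraries, for each contralateral and naive library (points) with the group mean (bars). The mitochondrial genome lies at -3.02, -2.12 and -0.49 in contralateral libraries, and the immediate early and heat shock list at 1.45, 0.49 and 0.35.

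The naming rule also took, over all genes, those with the smallest p whose groups did not overlap. That choice used the same contrast, so their values describe it and carry no test. Towards lower levels came Rac1, the small GTPase that drives lamellipodia and phagocytic cups, with 80.2, 66.5 and 66.1 CPM in contralateral libraries against 441, 350, 275 and 312 CPM in naive libraries (log2 fold change -2.28 ± 0.53, SE). DESeq2 called it, as did edgeR without the filter. Sham libraries held 57.2 to 362 CPM of it and reached into both ranges. Fam49b, which binds Rac1 and restrains its signalling, had 31.2, 64.2 and 127 CPM in contralateral libraries against 270, 271, 260 and 182 CPM in naive libraries. Marcks, an actin-binding substrate of protein kinase C, had 64.1, 57.4 and 149 CPM in contralateral libraries against 297, 192, 227 and 329 CPM in naive libraries. Kctd12, an auxiliary subunit of GABA-B receptors, had 79.7, 64.5 and 243 CPM in contralateral libraries against 428, 334, 428 and 483 CPM in naive libraries. The remaining lower genes were the kinase Map3k8, the membrane contact protein Vapa, the exchange factor Rapgef6, the histone demethylase Kdm4b, the acyl-CoA binding protein Acbd6 and the exonuclease Xrn2, with log2 fold changes of -4.94 (Acbd6) to -1.58 (Rapgef6).

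Towards higher levels the rule took, besides Nlrp3, Hspa1a and Stab1, genes of diverse roles. Acvrl1, a type I receptor for BMP9, had 130, 298 and 78.5 CPM in contralateral libraries against 10.2, 37.0, 41.5 and 42.9 CPM in naive libraries (log2 fold change 2.36 ± 0.59, SE). Kif21b, a kinesin, had 994, 692 and 367 CPM in contralateral libraries against 341, 303, 322 and 274 CPM in naive libraries. Ndufs8, a nuclear complex I subunit that is not on the list of nuclear-encoded subunits above, had 168, 137 and 95.1 CPM in contralateral libraries against 50.3, 47.9, 60.1 and 47.6 CPM in naive libraries. Aamp, Farsa, a subunit of phenylalanyl-tRNA synthetase, and Copz1, a coatomer subunit, had log2 fold changes of 1.33, 2.32 and 1.97. Smyd2, a lysine methyltransferase, had 18.2, 91.4 and 3.65 CPM in contralateral libraries and reads in only 1 naive library, at 0.318 CPM. AA914427 had 18.6, 51.7 and 2.37 CPM in contralateral libraries, most of it in replicate 2, and 0 reads in naive libraries.

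Of 66 ribosomal protein genes 53 had a log2 fold change above 0 (47.4% of all genes tested did), and the median was 0.19. At an unadjusted p under 0.05, 5 were higher and 0 lower, against 2.9% and 2.28% of all genes. The direction rested on the fit and on contralateral replicate 1, since the median was -0.15 without that library and -0.10 on log2(FPKM + 1). Their summed level was 24860, 21900 and 12200 CPM in contralateral libraries, against 18210, 13900, 12570 and 19200 CPM in naive libraries. These genes are short, and the 2 contralateral libraries with the higher sums are those with the length difference given above. By length, the median log2 fold change was 0.07 for genes of up to 1000 bases and -0.17 for those over 4000 bases. With the length trend removed the ribosomal median was 0.20, near the 0.19 of the main fit, and that of all genes was 0.19. The cause of the ribosomal levels was not tested.

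The identity of the sorted cells was checked with the marker lists. Fcrls, used for the sort, had 477, 292 and 763 CPM in contralateral libraries against 486, 924, 840 and 569 CPM in naive libraries, and Itgam, which encodes CD11b, had 374, 590 and 370 CPM in contralateral libraries against 281, 382, 347 and 337 CPM in naive libraries. Ly6c2, which encodes the Ly6c antigen sorted against, had 0 reads in each of these libraries. Rod photoreceptor transcripts were present throughout, all 23 listed genes being measured, with summed levels of 3165 to 4927 CPM in contralateral libraries and 539 to 4212 CPM in naive libraries. The rod list had 16 of 23 genes above 0 and a median log2 fold change of 0.42. Naive replicate 1, which held the least, was also the lowest naive library for Hspa1a, Atf3 and Cd74. For H2-Ab1 it was not, at 90.2 CPM against 76.4 CPM in naive replicate 3, and a link in this 1 library was not tested. With the rod level as a covariate 0 genes were called, and the medians were -1.54 for the mitochondrial list and 0.62 for the immediate early and heat shock list. Cone photoreceptor markers (6 of 13 measured) summed to 434, 283 and 97.6 CPM in contralateral libraries against 146, 145, 71.1 and 180 CPM in naive libraries. Most of these sums was Gngt2, at 182, 102 and 46.6 CPM in contralateral libraries, and Guca1a, at 161, 180 and 34.4 CPM. Guca1a is also on the rod list, so the cone sums are not independent of the rod sums. Endothelial and pericyte markers (6 of 22 measured) summed to 175, 132 and 72.8 CPM in contralateral libraries against 35.7, 42.9, 19.5 and 95.3 CPM in naive libraries. Most of the contralateral sums was Vtn, at 118, 88.9 and 47.2 CPM. Monocyte markers (14 of 22 measured, 7 with 0 reads in contralateral and 11 with 0 in naive libraries) summed to 450, 726 and 1559 CPM in contralateral libraries against 465 to 688 CPM in naive libraries. In replicate 3 most of that sum was Lyz2, at 1359 CPM. Border-associated macrophage markers, 11 of 14 measured, summed to 847 to 1068 CPM in contralateral libraries against 529 to 738 CPM in naive libraries, with Stab1 at 681, 1009 and 446 CPM of the contralateral sums. In sorted bulk libraries, fewer contaminating cells and less RNA per cell cannot be told apart.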

How the data were processed

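The 14 libraries, 1 per retina, were grouped by their labels. Each library table holds expected counts, which per the file headers the authors left unscaled, and FPKM, divided by the authors by effective transcript length and by mapped reads. The submitters' processing notes list, with no role for any, DESeq2 1.30.1, Salmon 1.4.0, R 4.0.3 and the mm10 build. A ribosomal RNA gene held 5.22 to 24.2% of reads and stayed in the library sizes. The sorted cells were lysed at 100 to 300 cells per 5 µl, so each library rests on few cells.

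After rounding, expected counts went into edgeR 4.0.16 under R 4.3.3: filterByExpr with a minimum count of 10 (14279 genes kept), TMM factors, and robust quasi-likelihood tests with 1 coefficient per group over all 14 libraries, two-sided, with Benjamini-Hochberg adjustment and a threshold of 0.05. Standard errors were derived from each F statistic and its log2 fold change. The fit had 10 residual degrees of freedom, and its common biological coefficient of variation was 1.13. Of 47729 gene identifiers 47310 matched GENCODE M21, which gave coordinates, and DESeq2 1.42.0, limma 3.58.1 and other choices were tried as alternatives. Length differences between libraries compare genes of up to 1000 bases with those over 4000 bases among genes averaging at least 10 CPM.

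Genes were named by 3 routes: the smallest p with at least 10 CPM and no overlap (12 per direction), the 2 smallest p of each list with at least 5 measured genes, and a fixed panel. A few further list members (such as Dnajb1, Fos, Hspa1b, mt-Atp6, C1qa and C1qb) were chosen after their values were seen. A few genes that the rule took are not reported here. The members and lists were chosen with earlier results of these data known. Of 36 lists, 29 had at least 5 measured genes; 0 of their genes were called in the main edgeR test (12 without the filter, 5 by DESeq2), and their medians ran from -1.37 (mitochondrial genome) to 1.53 (cone photoreceptor) on the log2 scale.

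Replicate numbers were taken as names. Deviations from the group means correlated at 0.04, -0.02 and 0.14 between same-numbered contralateral and naive libraries, which come from different mice. Between same-numbered contralateral and microbead libraries they correlated at 0.02, -0.05 and 0.12. With so few libraries per group, such values cannot show whether the numbers mark a shared mouse.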

Additional observations from a re-analysis of the deposited data

Results flagged for a closer look

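Among 164 groups of 4 sham or naive libraries whose values enter the text, 11 held a library far from the other 3 by Dixon's ratio, and chance alone marks about 1 in 20. In sham libraries, replicate 1 was high for mt-Co2 (812 CPM), mt-Cytb (964 CPM) and Cox7c (45.2 CPM), and replicate 3 was high for the ribosomal protein gene Rplp0 (808 CPM). Of the naive libraries, replicate 1 was low for Atf3 (98.4 CPM) and Clec7a (97.5 CPM). Replicate 2 was high for H2-Ab1 (452 CPM), and replicate 3 was the only one with reads for Smyd2 (0.318 CPM). Replicate 4 was low for Fam49b (182 CPM) and high for Kdm4b (81.8 CPM) and Cox7c (46.9 CPM). Without naive replicate 1 the median log2 fold change of the immediate early and heat shock list was 0.49, against 0.69 with it.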

How the results depend on the processing

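The count of genes called between contralateral and naive libraries was 0 with DESeq2's size factors, a filter of at least 50 reads in 3 libraries, limma voom, limma on log2(FPKM + 1), both groups alone, the rod covariate, the length trend removed, absent identifiers left out, libraries of fewer than 12000 genes left out and the sham or pooled comparison groups, but 21 without a filter and 64 by DESeq2's Wald test. With 1 library left out at a time it ranged from 0 to 11. Contralateral against sham, the count was 22 without a filter, 59 by DESeq2 and 0 to 21 with 1 library left out. Microbead against contralateral, the 4 became 157 without a filter, 2 with the 50-read filter, 661 by DESeq2, 98 on log2(FPKM + 1), 1 with the rod covariate, 0 with the length trend removed, 9 without libraries of fewer than 12000 genes, and 0 to 162 with 1 library left out. With the replicate number as a block, which the labels do not support as pairing, 0 genes were called contralateral against naive, 0 contralateral against sham and 0 microbead against contralateral. Among genes that the naming rule chose by p, directions turned in 6, none called in the main edgeR test, although C4b was called without the filter. Genes of the fixed panel alone, and those added later, were not followed across these settings. Some panel genes turned as well with sham in place of naive, among them H2-Ab1 (1.43 to -0.20), Apoe (-0.30 to 0.02) and Sall1 (-0.02 to 0.29). With sham in place of naive, log2 fold changes were -0.053 for Cd74, -0.41 for C4b, -0.066 for Pilra and -0.098 for Lyz2. Ifi35 stood at -0.046 without libraries of fewer than 12000 genes and ranged from -0.047 to 1.61 with 1 library left out, Gngt2 from -0.36 to 0.66, and Lyz2 from -0.20 to 0.82. The cause of these changes was not tested. The median of all genes, -0.06, was -0.24 on log2(FPKM + 1) and 0.19 with the length trend removed. Few sorted cells and 3 contralateral libraries limit what differences could be detected.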
